A study of Mus musculus with 32 samples.

Results

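*Fos*, *Fosb*, *Fosl1*, *Fosl2*, *Jun*, *Junb*, *Jund*, *Atf3*, *Egr1* and *Ier2* are AP-1 or immediate early genes. The first 8 encode subunits or close relatives of the AP-1 transcription factor, and not all of these are immediate early genes. They were taken by gene symbol as members of this family and are 10 of the 53558 genes measured. RNA-seq was performed on neoplastic cells from mouse lung tumors, in 32 libraries that fall into 5 groups, to ask what loss and later restoration of the tumor suppressor *Lkb1* (gene symbol *Stk11*) change. Every mouse carried a Cre-activated tdTomato reporter, and lentiviral Cre delivered to the airway initiated the tumors.

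The *KT* group (4 libraries) was wild type for *Lkb1* and had no treatment. Non-Restored (10 libraries) and Restored (7 libraries) tumors were homozygous for *Lkb1XTR*, an allele in which Cre turns on a gene trap that silences *Lkb1* and in which the recombinase FLPo-ERT2, active only with tamoxifen, removes the trap. Restored mice carried *Rosa26* FLPo-ERT2 and received 4 mg doses of tamoxifen for 2 weeks. The Non-Restored group pooled 6 libraries with FLPo-ERT2 and corn oil vehicle and 4 libraries without FLPo-ERT2 but with tamoxifen, so drug and allele cannot be told apart between these arms. Non-Restored Trp53del (7 libraries) and Restored Trp53del (4 libraries) tumors followed the same scheme with *Trp53* also deleted by Cre. The Trp53del tumors grew for 16 to 19 weeks before collection and all others for 24 to 27 weeks, so *Trp53* genotype and tumor age cannot be told apart. All 11 libraries of the Restored and Restored Trp53del groups were from females, whereas 2 *KT*, 3 Non-Restored and 3 Non-Restored Trp53del libraries were from males.

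AP-1 is a dimer of a Fos-family protein with a Jun-family protein, or of Jun-family proteins with each other or with ATF relatives. Immediate early genes are transcribed within minutes of a signal without new protein synthesis. Growth factor signalling through ERK induces *Fos* and *Egr1* through serum response factor, and the stress kinases JNK and p38 induce *Jun* and *Atf3*. FOSL1 is stabilised and its gene kept on by sustained ERK signalling, which makes it a known marker of aggressive epithelial tumors. Immediate early genes also rise in cells that are warmed with proteases during tissue dissociation. Per the labels every tumor was kept warm with a mix of proteases (collagenase IV, trypsin and dispase) before the sort. No undissociated tissue was analysed here, so transcripts present in the tumor and transcripts made during dissociation cannot be told apart. Because the samples are bulk, fewer cells of a type and less RNA per cell cannot be told apart either.

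Promoter sequences are given for *Fos*, *Fosb*, *Jun* and *Junb*, since *Jun*, *Junb* and *Fosb* were the Fos- and Jun-family genes that varied most closely with *Fos* between libraries, so that the elements within reach of the start site can be read. Each is the 150 bases before the RefSeq start (GRCm38.p6), 5′ to 3′ on the coding strand. Capitals mark 3 motifs. The letters TGACG are one arm of the cyclic AMP response element. The letters TGACATCA are a variant of the AP-1 site. The letters TATAAA spell the usual core element near a start site. All motifs were searched on both strands over the 250 bases before the start.
Fos, chr12:85473740-85473889, plus strand: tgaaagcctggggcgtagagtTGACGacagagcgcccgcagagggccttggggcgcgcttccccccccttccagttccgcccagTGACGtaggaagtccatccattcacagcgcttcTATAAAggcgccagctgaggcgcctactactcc
Fosb, chr7:19310046-19310195, minus strand: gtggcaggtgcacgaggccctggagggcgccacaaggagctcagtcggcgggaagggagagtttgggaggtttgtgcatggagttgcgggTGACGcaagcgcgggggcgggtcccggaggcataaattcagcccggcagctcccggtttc
Jun, chr4:95052223-95052372, minus strand: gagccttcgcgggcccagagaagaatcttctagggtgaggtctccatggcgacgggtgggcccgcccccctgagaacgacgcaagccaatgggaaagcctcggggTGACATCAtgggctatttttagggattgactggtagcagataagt
Junb, chr8:84978749-84978898, minus strand: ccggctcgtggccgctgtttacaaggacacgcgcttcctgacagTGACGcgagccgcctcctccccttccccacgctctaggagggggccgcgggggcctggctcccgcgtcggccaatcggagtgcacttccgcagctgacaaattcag

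*Fos* held TGACG at 129 and at 66 bases before the start and TATAAA at 33 bases. *Fosb* held TGACG 60 bases and *Junb* 106 bases before the start, and *Jun* held TGACATCA 45 bases before it. Of 32851 RefSeq promoters of the same length, 17.8% held TGACG, 12.4% TATAAA and 2.93% TGACATCA, so these matches are only a description. The full cyclic AMP response element TGACGTCA, which contains TGACG, the AP-1 site TGANTCA and the CArG box of serum response factor were searched too. Within the 250 bases they were found in none of the promoters looked up, and in 1.55%, 6.75% and 1.47% of all. Bases farther from the start were not searched, so sites there would be missed. A promoter was found for 7 of the 9 genes looked up, and *Egr1* was not among the 9.

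The libraries held 1302482 to 5943951 expected counts each (the number of read pairs that RSEM assigned to each gene, summed over genes). *Stk11* was at 16.5 to 27.1 CPM (counts scaled to a common library size) in *KT*, 0 to 1.07 CPM in Non-Restored and 11.5 to 22.3 CPM in Restored libraries, as the labels describe. The 6 epithelial markers summed to 3881 to 49481 CPM. The 8 markers of immune cells summed to 7.18 to 114 CPM, the 6 of endothelium to 1.33 to 133 CPM and the 5 of red blood cells to at most 6.95 CPM, none of which the sort was meant to keep. The 6 fibroblast markers summed to 2.22 to 1471 CPM, the highest in Restored Trp53del replicate 1, and their part in the levels given here was not tested.

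The 10 genes spanned the range from some of the most abundant transcripts to barely detected ones. On the TPM scale, which corrects for gene length, the median over the 32 libraries was 1086 for *Fos*, 826 for *Egr1*, 329 for *Jun*, 274 for *Atf3* and 255 for *Fosb*. *Junb* followed with 72.8 TPM, *Ier2* with 63.9, *Fosl2* with 33.9, *Jund* with 27.3 and *Fosl1* with 13.8. By TPM, *Fos* was the 120th and *Egr1* the 148th most abundant gene in the median library. Between neighbours in this order, the difference within libraries exceeded its SD at 3 steps, from *Egr1* to *Jun* (1.18 ± 0.48 log2 units, SD, 32 libraries), from *Fosb* to *Junb* (1.57 ± 0.67) and from *Ier2* to *Fosl2* (0.87 ± 0.61). *Fos* and *Egr1* did not differ beyond their spread over all libraries (0.32 ± 0.38 log2 units). The order of *Fos* and *Egr1* was not the same in every group, since *Egr1* exceeded *Fos* in 3 of 4 *KT* libraries.

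**Figure D1:**
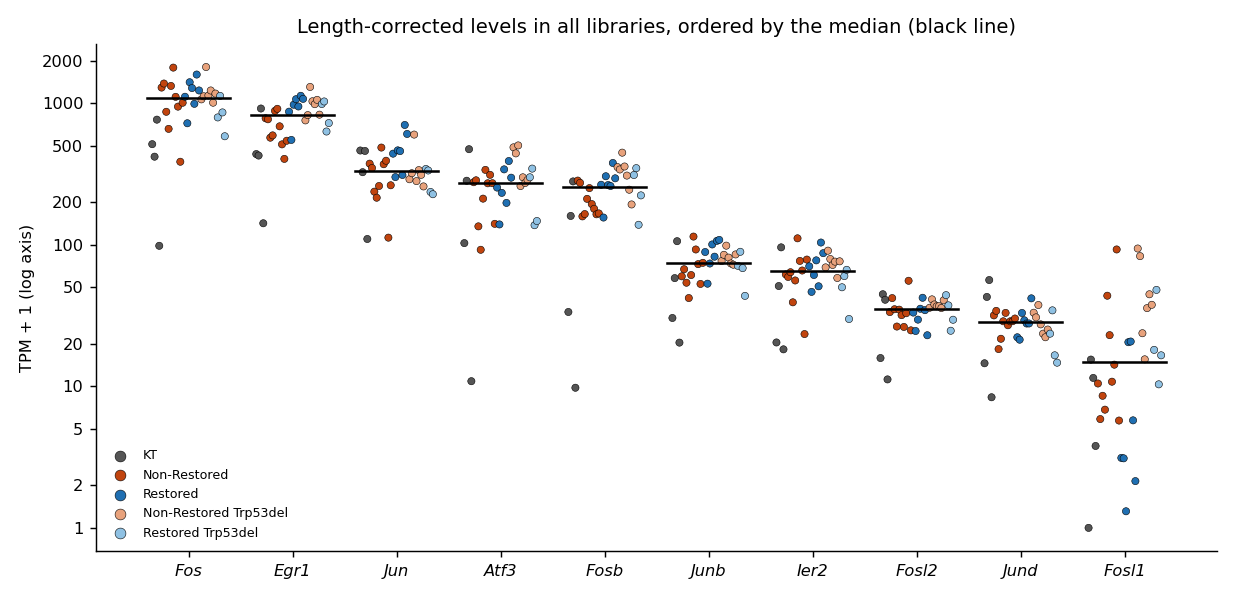
Level of each gene in TPM + 1 (log axis) in all 32 libraries, with genes ordered by their median (black line) and points coloured by group. *Fos* (median 1086 TPM) and *Egr1* (826 TPM) lie at the top and *Fosl1* (13.8 TPM) at the bottom, and the lowest point of most genes is a *KT* library.

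*Fos* accounted for most Fos-family transcripts. Its share of the summed TPM of *Fos*, *Fosb*, *Fosl1* and *Fosl2* was 55.4% to 91.5% over all libraries, and the share of *Jun* in the Jun family was 58.3% to 91.5%. Both lowest shares were in Non-Restored replicate 8, and both highest shares were in *KT* replicate 1. The 10 genes together took a median of 1720 TPM in *KT*, 2701 in Non-Restored, 3573 in Restored, 3287 in Non-Restored Trp53del and 2556 in Restored Trp53del libraries. These medians hide wide ranges, which ran from 423 to 3197 TPM in *KT*, from 1582 to 4076 in Non-Restored and from 2007 to 4462 in Restored libraries.

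Levels of single genes are given from here in CPM, which were scaled between libraries and are compared only within a gene. *Fos*, which encodes the prototype Fos subunit, was at 801, 663, 1198 and 146 CPM in *KT* replicates 1 to 4. In Non-Restored libraries *Fos* ranged from 591 to 2258 CPM with a median of 1484, and in Restored libraries from 1139 to 2273 with a median of 1690. One *KT* library lay below every other library, and the other 3 lay within the Non-Restored range but under its median. The Non-Restored Trp53del libraries ranged from 1447 to 2576 CPM with a median of 1664, and the 4 Restored Trp53del libraries held 1101, 1608, 1258 and 880 CPM. The latter overlapped the Non-Restored Trp53del libraries in 1 library only, replicate 2.

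*Fosb*, which encodes a Fos protein known to persist through its truncated splice form, varied most within *KT*. It was at 91.2, 460, 803 and 24.3 CPM in *KT* replicates 1 to 4, so 2 libraries matched the other groups and 2 lay far under them. Non-Restored libraries were tight, from 402 to 700 CPM with a median of 469. Restored libraries held 445 to 979 CPM with a median of 742, Non-Restored Trp53del libraries 540 to 1175 with a median of 892, and Restored Trp53del libraries 788, 912, 371 and 616 CPM.

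*Fosl1*, which encodes FRA-1, was low and uneven. It was at 0, 18.2, 13.0 and 3.34 CPM in *KT* replicates 1 to 4, where 3 counts are worth 2.04 CPM in replicate 1. Non-Restored libraries held 5.23 to 111 CPM with a median of 10.4, and the highest value was that of replicate 8. Restored libraries held 0.381 to 22.2 CPM with a median of 2.63, and 4 of the 7 lay below every Non-Restored library. Trp53del libraries held 15.7 to 115 CPM (median 44.7) in Non-Restored Trp53del and 18.8, 53.2, 10.8 and 18.6 CPM in Restored Trp53del, and both groups overlapped those with wild-type *Trp53*. *Fosl1* (chr19:5447547-5455946, plus strand, GRCm38) overlaps *Ccdc85b* on the opposite strand, and the sources used here do not state strand-aware counting, so reads from the pair could be mixed. *Fosl2*, which encodes FRA-2, was the steadiest of the family at 101 to 261 CPM in the 28 libraries outside *KT*, with *KT* at 70.8, 213, 197 and 49.1 CPM.

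*Jun*, the main partner of Fos proteins, was at 1128, 807, 1124 and 257 CPM in *KT* replicates 1 to 4. Non-Restored libraries held 268 to 960 CPM with a median of 664, and Restored libraries 692 to 1564 with a median of 1047. The 2 highest *Jun* values of all libraries were in Restored tumors, in replicates 6 and 7, and 4 of the 7 Restored libraries lay above every Non-Restored library. Non-Restored Trp53del libraries held 601 to 1338 CPM with a median of 709, and the Restored Trp53del libraries 744, 747, 538 and 535 CPM. *Junb* and *Jund* encode proteins known to oppose some actions of JUN, and their median TPM given above was lower than that of *Jun*. *Junb* was at 38.8, 72.7, 139 and 22.4 CPM in *KT*, at 51.3 to 118 CPM (median 72.2) in Non-Restored and at 69.6 to 136 CPM (median 106) in Restored libraries. *Jund* lay between 8.59 and 66.8 CPM everywhere, both extremes being *KT* libraries, and its counts were only 18 to 279 per library. *Jun*, *Junb* and *Jund* each overlap a gene on the opposite strand (*Junos*, *Prdx2* and *Gm11175*), with the same limit on strand.

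*Atf3*, a stress-induced ATF relative that pairs with JUN proteins, had the widest range over all libraries after *Fosl1*. It was at 146, 409, 678 and 13.4 CPM in *KT* replicates 1 to 4, against medians of 345 in Non-Restored and 352 in Restored libraries. *Egr1*, a zinc finger factor and textbook target of ERK signalling, was at 1128, 1112, 2349 and 346 CPM in *KT*. Its Non-Restored libraries held 983 to 1950 CPM with a median of 1497, and its Restored libraries 1437 to 2648 with a median of 2190. Of the 7 Restored libraries, 6 were above every Non-Restored library, and replicate 2 at 1437 CPM was the exception. Non-Restored Trp53del libraries held 1921 to 3044 CPM (median 2183) and Restored Trp53del libraries 2183, 2368, 1520 and 1755 CPM. *Ier2*, a small nuclear protein induced by growth factors, was at 21.1, 55.4, 103 and 18.1 CPM in *KT*, with medians of 59.0 in Non-Restored and 67.6 in Restored libraries.

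**Figure D2:**
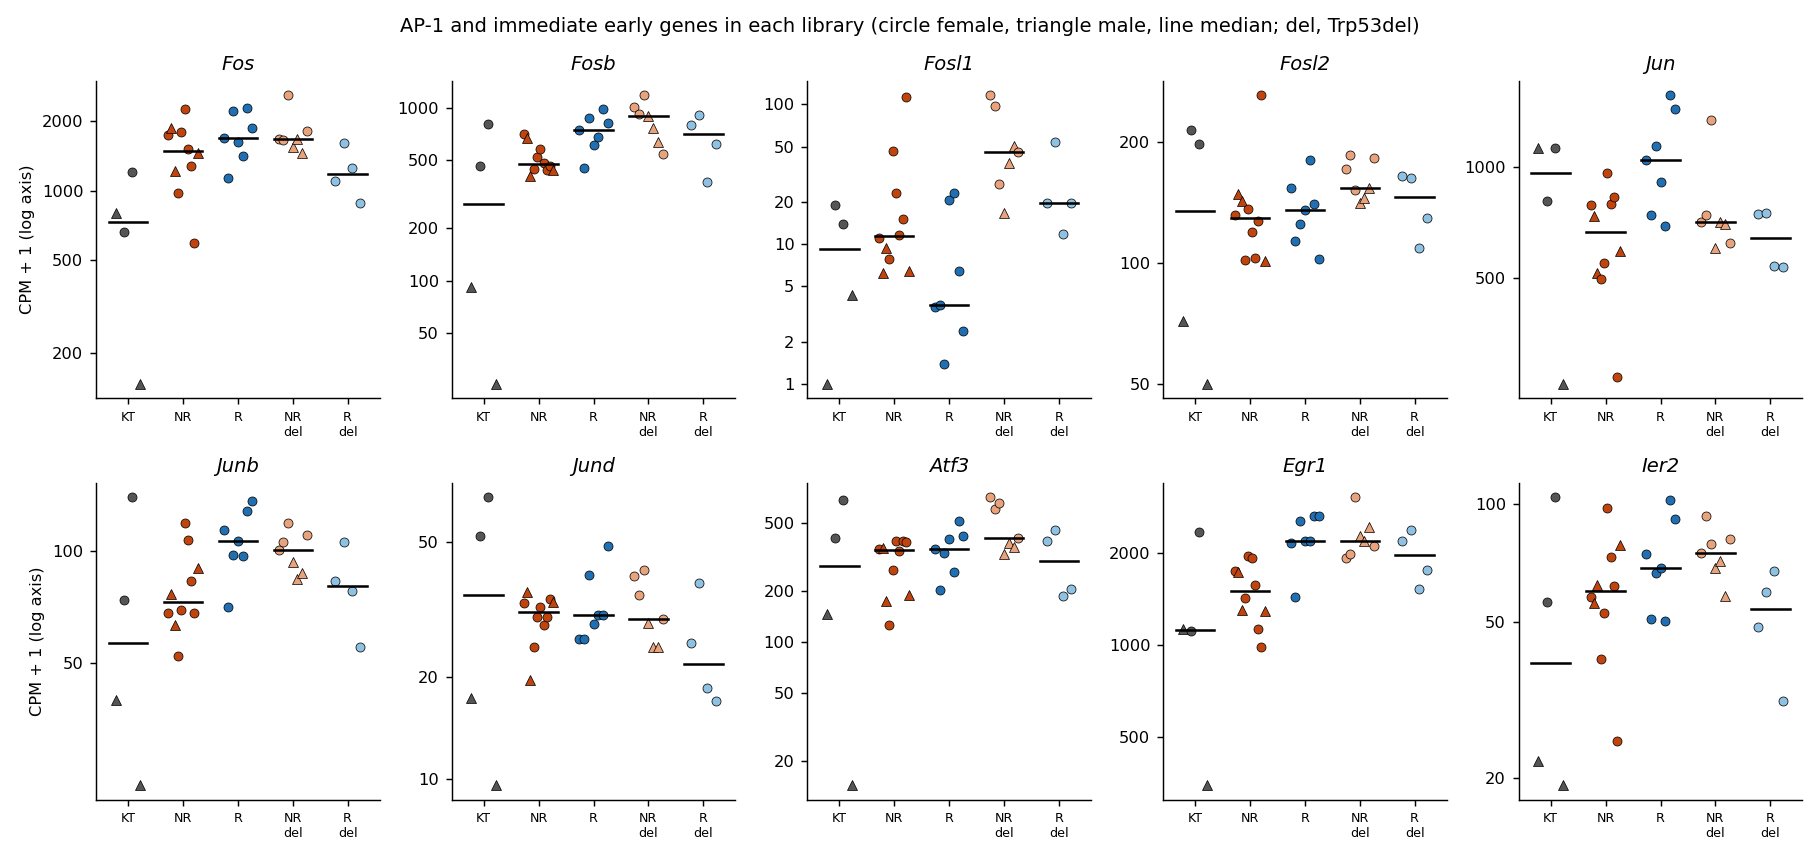
CPM + 1 (log axis) of the 10 genes in every library of *KT*, Non-Restored (NR), Restored (R) and the corresponding Trp53del groups. Circles are females, triangles males and lines medians, and *KT* replicate 4 is the lowest library of all 32 for 9 of the 10 genes.

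*KT* replicate 4 stood apart. It held the lowest CPM of 9 of the 10 genes among all 32 libraries, and the exception was *Fosl1*, which was at 0 in *KT* replicate 1. Its 2061514 expected counts lay inside the range of the other libraries. The SD of log2 CPM was larger in *KT* than in Non-Restored or Restored libraries for 10 of the 10 genes, for example 2.28 against 0.28 and 0.38 for *Fosb*. Replicates 1 and 4 were the males, and for 7 of the 10 genes both lay below both females, whereas *Fos*, *Jun* and *Egr1* of replicate 1 did not. With 2 animals of each sex, sex and single library cannot be told apart in *KT*. Heat shock genes are also known to rise in warm dissociation, and within *KT* their levels followed the order of the 10 genes only in part. *KT* replicate 1 had the highest *Hspa1a* of all libraries (2997 CPM, against 477, 264 and 436 in replicates 2 to 4). Its sum over 14 heat shock genes was 15990 CPM, with *Fosb* at 91.2, *Fos* at 801 and *Jun* at 1128 CPM. *KT* replicate 4, the lowest for 9 of the 10 genes, also had the lowest heat shock sum in *KT*. It was 5175 CPM, against 7229 and 5989 CPM in replicates 2 and 3, and 3471 to 9645 in Non-Restored libraries. The heat shock gene *Dnajb1* was likewise lowest in *KT* replicate 4, at 131 CPM against 1721, 334 and 403 CPM in replicates 1 to 3. Non-Restored Trp53del replicate 3 had a heat shock sum of 14177 CPM. It also had the highest *Fos* (2576 CPM), *Fosb* (1175 CPM) and *Egr1* (3044 CPM) of all 32 libraries. The part of dissociation stress in these levels was not tested.

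Restored tumors were compared with Non-Restored tumors to ask whether *Lkb1* restoration changed these genes. *Jun* was 0.72 ± 0.26 higher (log2 fold change ± SE, 7 against 10 libraries, adjusted p = 0.183) and *Egr1* 0.58 ± 0.24 higher (adjusted p = 0.238) in the edgeR quasi-likelihood test. *Fosb* was 0.52 ± 0.39, *Junb* 0.43 ± 0.25 and *Fos* 0.25 ± 0.29 higher, and the estimate for *Fosl1* was -1.59 ± 0.80 (adjusted p = 0.354). In all, 8 of the 10 estimates were positive with a median of 0.26, against a median of -0.01 over all genes. No estimate passed an adjusted p of 0.05: 0 of the 10 genes were called, where 1.87% of the 12636 genes tested were. At an unadjusted p under 0.05 edgeR gave 2 of the 10 genes (*Egr1* and *Jun*), where 15.1% of all genes tested were, and DESeq2 called 0 of the 10 and 3.7% of all genes. Estimates were positive for 3 of 3 tested immune markers (median 1.02) and 3 of 3 tested airway markers (median 0.57). They were positive for 0 of 6 endothelial (median -0.58) and 1 of 6 fibroblast markers (median -0.26). None of these markers was called, and their part in the differences was not tested. When only the tamoxifen arm of the Non-Restored group served as control, *Egr1* differed by 0.94 ± 0.35 and *Jun* by 0.97 ± 0.38, and with only the vehicle arm by 0.39 ± 0.28 and 0.58 ± 0.29, with neither called. Non-Restored replicate 8 had the lowest *Jun* and the highest *Fosl1* and *Fosl2* of its group, and without it the estimates were -0.82 ± 0.70 for *Fosl1*, 0.63 ± 0.24 for *Jun* and 0.53 ± 0.24 for *Egr1*. With females alone *Jun* differed by 0.69 ± 0.26, *Egr1* by 0.56 ± 0.20, *Fosb* by 0.51 ± 0.18 and *Fosl1* by -1.96 ± 0.78, with none called. With sex as a covariate the estimates were 0.65 ± 0.28 for *Jun*, 0.45 ± 0.25 for *Egr1*, 0.19 ± 0.41 for *Fosb* and 0.25 ± 0.25 for *Junb*, and the unadjusted edgeR p of *Egr1* was 0.0902. In that fit *Fosl1* was at -2.01 ± 0.72 (edgeR adjusted p = 0.169).

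Within the Non-Restored group the 2 arms were compared for the 10 genes. *Egr1* was at 983 to 1304 CPM in the 4 tamoxifen libraries and at 1427 to 1950 CPM in the 6 vehicle libraries, without overlap, and the fitted difference of -0.55 ± 0.31 (log2) was not called by edgeR (adjusted p = 1.00). *Fosb* overlapped in part, with 402 to 458 CPM against 442 to 700. The share of all genes without overlap between the arms was not counted, so the *Egr1* ranges are only a description. In this comparison 0.00791% of genes were called, which is 1 gene of 12636, and 0 of the 10 were. At an unadjusted p under 0.05 edgeR gave 0 of the 10 and 4.61% of all genes, and DESeq2 called 0 of the 10 and 0.095% of all.

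**Figure D3:**
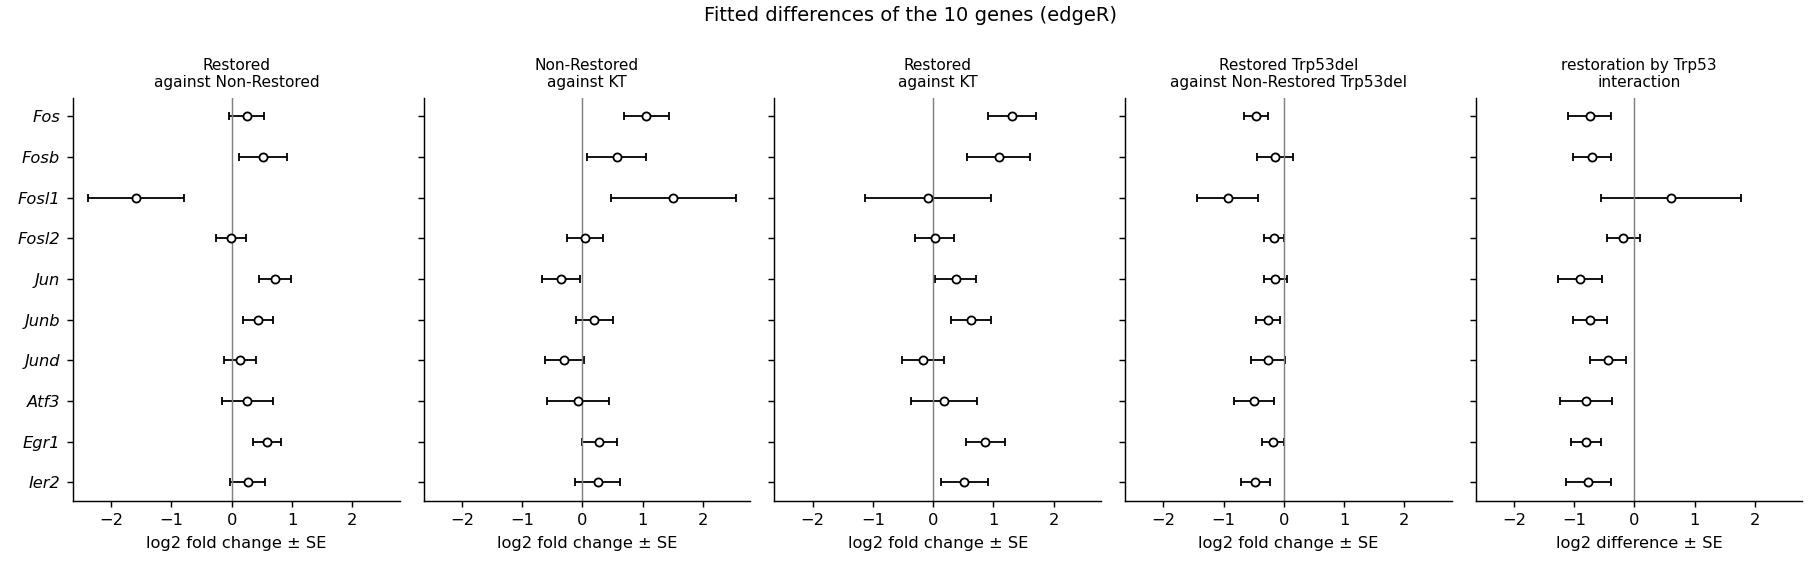
Log2 fold change ± SE (edgeR, x axis) of the 10 genes in 4 comparisons and, in the last panel, the log2 difference between the effect of restoration in Trp53del and in *Trp53* wild-type tumors. No adjusted p was under 0.05 in these comparisons, and the open symbols carry no meaning. *Jun* (0.72) and *Egr1* (0.58) are highest in the first panel, and 9 of 10 differences in the last panel are below 0.

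Non-Restored tumors, which carry the trapped allele, were compared with *KT* tumors. These groups also differ in treatment, which *KT* mice did not have, and in FLPo-ERT2, present in 6 of the 10 Non-Restored libraries. The study also gave *KT* mice a lower dose of lentiviral Cre. The allele cannot be told apart from these differences. *Fos* was 1.06 ± 0.37 higher on the log2 scale (10 against 4 libraries, edgeR adjusted p = 0.0998), and *Fosl1* 1.51 ± 1.03 and *Fosb* 0.57 ± 0.49 higher. The *Fosl1* estimate was 0.74 ± 0.89 without Non-Restored replicate 8, and that of *Fosb* 0.17 ± 0.36 without *KT* replicate 4. Markers of other cell types were also higher, with positive estimates for 6 of 6 endothelial (median 2.30) and 6 of 6 fibroblast markers (median 1.51), none of them called. Tested immune markers had 3 of 3 positive estimates (median 0.26) and tested airway markers 0 of 3 (median -0.66), again with none called. The endothelial sum was 9.54 to 17.4 CPM in *KT* and 1.86 to 133 CPM in Non-Restored libraries, and the fibroblast sum 14.6 to 82.1 and 6.73 to 420 CPM. Their part in the *Fos* difference was not tested. The edgeR test called 0 of the 10 genes, where 5.86% of all genes tested were called, and *Fos* alone had an unadjusted p under 0.05, as did 20.8% of all genes. DESeq2 called *Fos* (adjusted p = 0.0312) and 8.57% of all genes, and edgeR called it when Non-Restored replicate 8 was left out (1.15 ± 0.35, adjusted p = 0.0469, in a fit that called 7.61% of all genes). Without *KT* replicate 4, however, the *Fos* difference was 0.72 ± 0.30 (adjusted p = 0.208), and the estimates of *Egr1*, *Fosl2*, *Ier2* and *Junb* went from above to below 0. With females alone the *Fos* difference was 0.64 ± 0.40 and *Jund* was called as lower in Non-Restored tumors (-1.02 ± 0.22, adjusted p = 0.0281), in a fit that called 0.986% of all genes and rests on 2 *KT* libraries.

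Restored tumors, in which *Lkb1* is expressed again, were also compared with *KT*. Treatment, FLPo-ERT2 and the dose of lentiviral Cre differ between these groups too. *Fos* was 1.31 ± 0.39 higher (7 against 4 libraries, edgeR adjusted p = 0.171), *Fosb* 1.09 ± 0.53 and *Egr1* 0.87 ± 0.32 higher. In edgeR 0 of the 10 genes were called, where 0.459% of all genes tested were, and 2 (*Fos* and *Egr1*) had an unadjusted p under 0.05, as did 10.5% of all genes. DESeq2 called *Fos* (adjusted p = 0.0339) and 1.33% of all genes. Without *KT* replicate 4 the differences were 0.98 ± 0.32 for *Fos*, 0.70 ± 0.39 for *Fosb* and 0.56 ± 0.26 for *Egr1*. With females alone they were 0.91 ± 0.41 for *Fos*, 0.22 ± 0.27 for *Fosb* and 0.38 ± 0.31 for *Egr1*, and the unadjusted edgeR p of *Egr1* was 0.230. The 6 endothelial and 6 fibroblast markers again all had positive estimates (medians 1.4 and 1.24). So did 3 of 3 tested immune markers (median 1.09) and 2 of 3 tested airway markers (median 0.07). None was called, and the part of these markers was not tested. Both comparisons use the same 4 *KT* libraries, so the higher *Fos* in each is not 2 independent results.

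In Trp53del tumors the estimates were below 0 with restoration, and none passed the test. Libraries of 1 animal were summed here, which left 4 animals against 4. Summed by animal, *Fos* was at 1947, 1594, 1438 and 1798 CPM without and at 1101, 1593, 1249 and 882 CPM with restoration, and only 1 Restored Trp53del animal reached the lower end of the others. The log2 fold change of *Fos* was -0.46 ± 0.20 (edgeR adjusted p = 0.803), that of *Fosl1* -0.93 ± 0.51, of *Atf3* -0.50 ± 0.33 and of *Ier2* -0.47 ± 0.24. All 10 estimates were below 0, with a median of -0.26 against 0.02 over all genes. The 10 genes were measured in the same 8 animals and are not independent of each other. No gene was called, among the 10 (0 of 10) or in the whole test (0%). In edgeR 1 of the 10 genes, *Fos*, had an unadjusted p under 0.05, as did 5.98% of all genes, and DESeq2 called 0 of the 10 and 0.184% of all.

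Whether the effect of restoration differed between *Trp53* backgrounds was tested with an interaction over 25 units. The log2 difference (effect in Trp53del minus effect in *Trp53* wild-type tumors) was -0.80 ± 0.26 for *Egr1*, -0.90 ± 0.36 for *Jun*, -0.73 ± 0.28 for *Junb*, -0.71 ± 0.31 for *Fosb* and -0.74 ± 0.35 for *Fos*. These 5 genes had an unadjusted edgeR p under 0.05, where 3.09% of all 13705 genes tested did. They were measured in the same 25 units and are not independent of each other, so the count cannot be read against that share. *Trp53* genotype and tumor age cannot be told apart here either. The adjusted p was 1.00 for each, and 0 of the 10 genes and 0% of all genes were called, by DESeq2 as well. *Fosl1* had an estimate of 0.60 ± 1.16, which was -0.15 ± 1.01 without Non-Restored replicate 8.

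*Trp53* deletion itself was compared within each restoration state. In Non-Restored tumors 9 of 10 estimates were positive, and the smallest p-values were those of *Egr1* (0.59 ± 0.17, edgeR adjusted p = 0.0960) and *Fosb* (0.57 ± 0.21, adjusted p = 0.168). The largest estimate was that of *Fosl1*, at 1.05 ± 0.75 and at 1.79 ± 0.65 without Non-Restored replicate 8 (edgeR adjusted p = 0.468 and 0.0790). *Egr1* was called by DESeq2 (adjusted p = 0.0387, with 3.06% of all genes called) and by edgeR without Non-Restored replicate 4 or 8 (adjusted p = 0.0483 and 0.0372, in fits that called 2.18% and 10.8% of all genes), but in the edgeR test of all libraries 0 of the 10 were called, where 0.598% of all genes were. At an unadjusted p under 0.05 edgeR gave 2 of the 10 and 17.7% of all genes. In Restored tumors 8 of 10 estimates were negative, *Jun* had -0.76 ± 0.27 (edgeR adjusted p = 0.201), and *Fosl1* had 1.66 ± 0.84. There edgeR called 0 of the 10, where 0.372% of all genes were called, with *Jun* alone at an unadjusted p under 0.05 against 15.5% of all genes, and DESeq2 called 0 of the 10 and 1.58% of all. These comparisons also differ in tumor age.

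Other genes of the pathway were read from lists by function. In Non-Restored against *KT* tumors, where 5.86% of all genes were called, most lists had 1 called gene, and the counts are given as a description of those genes and not of the lists. Of the tested genes, 1 of 23 other immediate early genes was called as higher, *Dusp1* (1.14 ± 0.29, edgeR adjusted p = 0.0226), a phosphatase that switches off stress and ERK kinases. It was at 310 to 922 CPM in Non-Restored and 117 to 474 CPM in *KT* libraries. Among 21 upstream kinases and serum response factor partners *Elk3* was higher (1.07 ± 0.22, adjusted p = 0.00466), at 31.9 to 62.9 against 20.7 to 25.2 CPM, without overlap. The share of all genes without overlap between these groups was not counted, so the *Elk3* ranges are only a description. Of 16 ERK output and feedback genes *Etv1*, a PEA3-type ETS factor, was lower (-1.64 ± 0.37, adjusted p = 0.0112), and of 11 AP-1 target genes *Hmox1*, the heme oxygenase induced by oxidative stress, was lower (-1.04 ± 0.21, adjusted p = 0.00527). Of the 14 heat shock genes 2 had a positive estimate, the median was -0.52, and 2 were called, with *Hspe1* lower (-0.77 ± 0.19, adjusted p = 0.0174) and *Hspa4* higher (0.39 ± 0.10, adjusted p = 0.0296). None of 12 AP-1 dimer partners was called in that comparison.

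In Restored against Non-Restored tumors none of these lists had a called gene. The smallest p among ERK output genes was that of *Ccnd1*, the cyclin of G1 phase (-0.57 ± 0.16, edgeR adjusted p = 0.0672), and among AP-1 targets that of *Cd44* (-0.54 ± 0.15, adjusted p = 0.0640). The AP-1 targets had a median of -0.56 over 11 tested genes, whereas the 10 AP-1 and immediate early genes had 0.26 and the 14 heat shock genes 0.29, with 13 of 14 heat shock estimates positive. In Non-Restored Trp53del against Non-Restored tumors *Klf6*, an immediate early zinc finger gene, rose (0.92 ± 0.18, adjusted p = 0.0159), as did *Dusp5*, a nuclear ERK phosphatase (1.67 ± 0.36, adjusted p = 0.0349). They were the called genes there of 25 other immediate early and 16 ERK output genes, where 0.598% of all genes were called. In the other comparisons no gene of these lists was called, whereas the median over the 25 other immediate early genes was 0.50 in the same Non-Restored Trp53del comparison and -0.45 in the interaction.

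Between libraries of 1 group *Fos* moved with a subset of the genes. Across the 10 Non-Restored libraries log2 CPM of *Fos* correlated with that of *Egr1* (Pearson r = 0.857, permutation p = 0.00188, adjusted over 30 tests 0.0334; Spearman rho = 0.830, permutation p = 0.00492, adjusted 0.0661). Without the 2 libraries farthest from the median of *Fos*, replicates 3 and 8, r was 0.891. *Fos* and *Jun* gave r = 0.864 (permutation p = 0.00638, adjusted 0.0478) and rho = 0.673 (permutation p = 0.0396, adjusted 0.170). *Zfp36*, which encodes an RNA-decay factor induced with *Fos*, gave r = 0.849 (permutation p = 0.00334, adjusted 0.0334) and rho = 0.794 (permutation p = 0.00882, adjusted 0.0661). Without replicates 3 and 8 r fell to 0.489 for *Jun* and 0.482 for *Zfp36*, so these relations rest on those libraries.

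Across the 7 Restored libraries *Fos* and *Fosb* gave r = 0.944 (exact permutation p = 0.00317, adjusted 0.0334) and rho = 0.964 (exact permutation p = 0.00278, adjusted 0.0661), and r = 0.811 without replicates 2 and 6. *Egr1* gave r = 0.898 (exact permutation p = 0.0111, adjusted 0.0556) and *Jun* 0.857 (exact permutation p = 0.0147, adjusted 0.0629), with r of 0.762 and 0.767 without those 2 libraries. The rho was 0.786 for *Egr1* (exact permutation p = 0.0480, adjusted 0.180) and 0.929 for *Jun* (exact permutation p = 0.00675, adjusted 0.0661). No relation of *Fos* with *Fosl1* or *Fosl2* was detected over all libraries of a group, with r of -0.403 (permutation p = 0.281) and -0.558 (permutation p = 0.171) in Non-Restored libraries. In Restored libraries r was -0.370 (exact permutation p = 0.405) and -0.0744 (exact permutation p = 0.869). Without the same 2 libraries per group, r for *Fosl1* and *Fosl2* was 0.356 and 0.0676 in Non-Restored and -0.907 and -0.713 in Restored libraries. These values thus depend on those libraries. The heat shock gene *Hspa1a* gave r of 0.160 (permutation p = 0.658) in Non-Restored and -0.614 (exact permutation p = 0.123) in Restored libraries. *Dnajb1*, another heat shock gene, gave r of 0.142 (permutation p = 0.580) in Non-Restored and -0.344 (exact permutation p = 0.437) in Restored libraries. *Dusp6*, a feedback phosphatase of ERK, gave r of -0.0590 (permutation p = 0.813) and -0.0908 (exact permutation p = 0.827). *Spry4*, another ERK feedback gene, gave -0.324 (permutation p = 0.366) and 0.741 (exact permutation p = 0.0623). *Nr4a1* gave -0.220 (permutation p = 0.553) and 0.812 (exact permutation p = 0.0183, adjusted 0.0685). Without those 2 libraries per group, r in Non-Restored and Restored libraries was -0.260 and -0.728 for *Hspa1a* and 0.295 and -0.912 for *Dnajb1*. It was 0.586 and -0.899 for *Dusp6*, 0.462 and 0.564 for *Spry4*, and 0.157 and 0.717 for *Nr4a1*. No rho passed an adjusted p of 0.05. The study counts fewer mice than libraries in both groups, so some libraries share a mouse, and the labels do not say which. These tests, and the edgeR tests with these groups, treat every library as independent, so their p-values are too small.

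**Figure D4:**
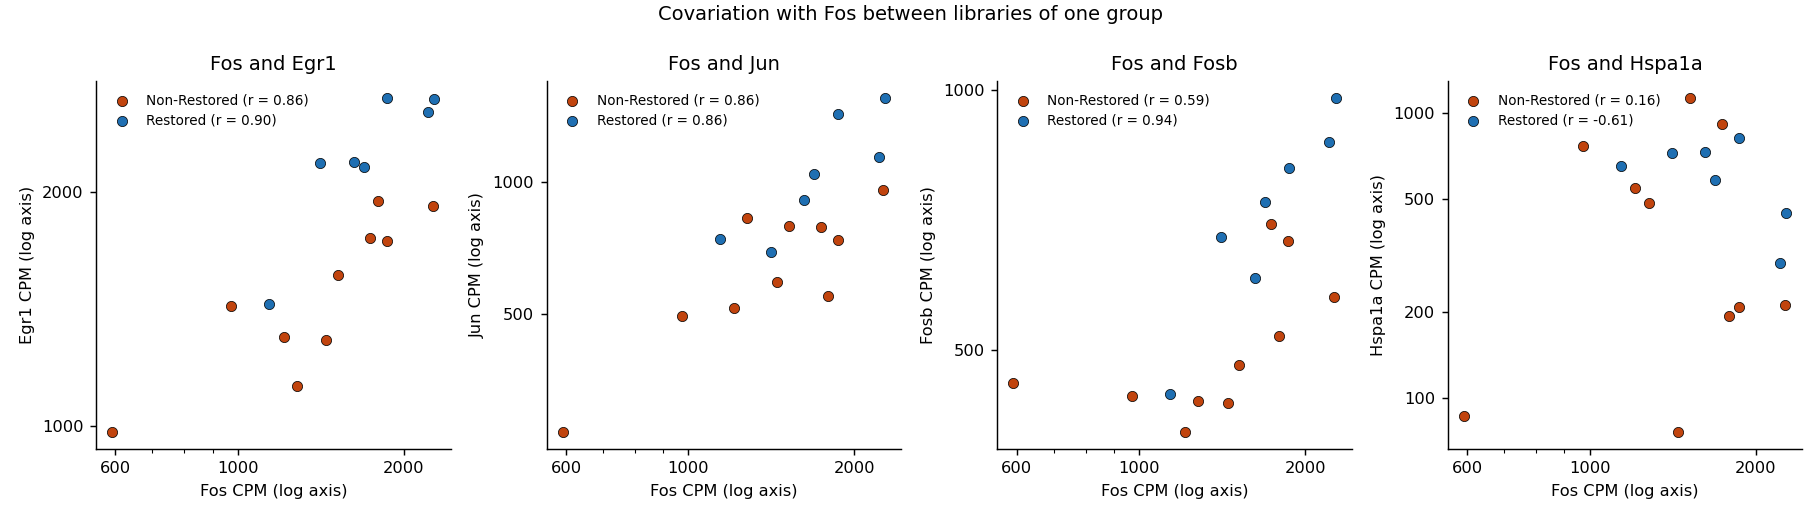
CPM of *Egr1*, *Jun*, *Fosb* and *Hspa1a* against CPM of *Fos* (log axes) in the 10 Non-Restored and 7 Restored libraries, each point 1 library, with Pearson r of log2 CPM per group. *Egr1*, *Jun* and *Fosb* run upward with *Fos* (r of 0.59 to 0.94), and *Hspa1a* does not (r of 0.16 and -0.61).

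Over 29 units of all groups, after each group's mean was subtracted, the genes most like *Fos* among 12636 were *Egr1* (Spearman rho = 0.832), *Dusp1* (0.823), *Jun* (0.784), *Klf2* (0.744) and *Zfp36* (0.685). *Junb* ranked 10th, *Atf3* 11th, *Ier2* 18th, *Fosb* 27th and *Jund* 39th. *Fosl2* ranked 3498th and *Fosl1* 6911th. Of the heat shock genes *Dnajb1* ranked 675th (rho = 0.329) and *Hspa1a* 7135th. *Nr4a1* ranked 144th (0.454), *Dusp6* 1450th (0.244) and *Spry4* 4901st (0.0606). *Fosl1* had other neighbours, namely *Zfand2a* (rho = 0.894), *Ehbp1l1* (0.876), *Hspa5*, the chaperone of the endoplasmic reticulum (0.875), *Dock11* (0.856) and *Tuba4a* (0.853), with the ERK-feedback gene *Dusp6* in 10th place (0.825). These values describe the units, which share depth and composition, and are given without a test.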

How the data were processed

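The authors dissociated lung tumors, sorted neoplastic cells without CD45, CD31, F4/80 or Ter119, and made libraries from total RNA with a Trio RNA-Seq kit. Per the submitters' notes reads were aligned to mm10 with STAR 2.6.1d and quantified with RSEM 1.2.30, and DESeq2 1.26.0 was also used by the authors. The authors deposited expected counts and TPM per gene for each library, and on average 16.8% of nonzero expected counts were not whole, within a tolerance of 0.005. Whether counting used strand is not given in the sources used here.

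Expected counts were rounded and tested with edgeR 4.0.16 (R 4.3.3, TMM scaling, filterByExpr, robust quasi-likelihood F test). P-values were adjusted by Benjamini and Hochberg over all genes tested, and a gene was called at an adjusted p under 0.05. CPM used TMM-scaled totals, log2 CPM a prior count of 2, and TPM served for levels between genes. One model held *KT*, Non-Restored and Restored libraries. Libraries of 1 Trp53del animal were summed, and the Trp53 comparisons used these sums. Correlations used permutation tests (scipy 1.17.1), exact for 7 libraries and with 100000 permutations for 10, over a family of 30. The edgeR and permutation scripts were tested on simulated data. Alternatives were DESeq2 1.42.0, other scaling, filter and length settings, sex, arms, a replicate block and leaving out each library.

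The members and gene lists were chosen with earlier results of these data known. Beside the 10 genes and *Stk11*, at most 4 called genes per list and comparison were named, or the one with the smallest p, with the correlated genes and the 5 genes most like *Fos* and *Fosl1*. Since the study counts fewer mice than Non-Restored and Restored libraries, some libraries share a mouse and p-values there are too small. One allele that all groups share is not reported here.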

Additional observations from a re-analysis of the deposited data

Results flagged for a closer look

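Of 50 combinations of gene and group, 3 held a library far from the rest by Dixon's criterion. Chance marks about 1 in 20 groups. *Fosl2* was highest in Non-Restored replicate 8 at 261 CPM, and *Jun* was lowest in the same library at 268 CPM. *Egr1* was lowest in Restored replicate 2 at 1437 CPM, where the other 6 Restored libraries were all above the highest Non-Restored library. The cause was not tested.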

How the results depend on the processing

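The 10 genes were called 0 times by the edgeR test of all libraries. DESeq2 called 1 in Non-Restored against *KT*, 1 in Restored against *KT* (*Fos* in both) and 1 in Non-Restored Trp53del against Non-Restored (*Egr1*), and females alone gave 1 in Non-Restored against *KT* (*Jund*). Leaving out 1 library gave 0 to 1 in Non-Restored against *KT* and 0 to 1 in Non-Restored Trp53del against Non-Restored. With log2(TPM + 1) 9 correlations with *Fos* passed instead of 4, while with a prior count of 0.5 *Jun* in Non-Restored libraries no longer did (r = 0.864, permutation test, adjusted p = 0.0501). With log2(TPM + 1) r turned to 0.0602 for *Dusp6* in Non-Restored and to 0.235 for *Fosl2* and 0.196 for *Dusp6* in Restored libraries.

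Log2 fold changes that turned sign were as follows. In Restored against Non-Restored, sex as a covariate gave -0.083 for *Atf3* and -0.077 for *Jund*, and *Fosl2* was 0.14 with the replicate block, 0.14 with the vehicle arm and 0.14 without *KT* replicate 4 and Non-Restored replicate 8, a setting chosen after seeing the data. In Non-Restored against *KT*, *Atf3* was 0.065 with sex, females alone gave *Egr1* -0.18, *Fosb* -0.30, *Fosl2* -0.57, *Ier2* -0.48 and *Junb* -0.42, and without both libraries *Fosl2* was -0.39 and *Junb* -0.075. In Restored against *KT*, sex gave *Atf3* -0.018 and *Fosl2* -0.14, females alone *Atf3* -0.62, *Fosl2* -0.60, *Ier2* -0.16 and *Junb* -0.00013, and leaving both out *Atf3* -0.22 and *Fosl2* -0.25. *Jund* was 0.024 in Non-Restored Trp53del against Non-Restored without a filter.

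With 1 library left out, Non-Restored against *KT* ranged from -0.49 to 0.65 for *Atf3*, -0.033 to 0.80 for *Egr1*, -0.24 to 0.35 for *Fosl2*, -0.035 to 0.94 for *Ier2*, -0.10 to 0.84 for *Junb* and -0.64 to 0.23 for *Jund*. Restored against *KT* ranged from -0.22 to 0.92 for *Atf3*, -0.61 to 0.47 for *Fosl1*, -0.25 to 0.35 for *Fosl2* and -0.50 to 0.37 for *Jund*. *Fosl2* ranged from -0.10 to 0.14 in Restored against Non-Restored, and *Fosb* from -0.33 to 0.050 in the Trp53del restoration comparison. Restored Trp53del against Restored gave -0.33 to 0.066 for *Fosb* and -0.038 to 0.16 for *Fosl2*. Non-Restored Trp53del against Non-Restored gave -0.0065 to 0.23 for *Jun* and -0.17 to 0.074 for *Jund*, and the interaction -0.15 to 1.13 for *Fosl1*. The arms gave -0.33 to 0.069 for *Atf3*, -0.85 to 1.66 for *Fosl1*, -0.37 to 0.10 for *Ier2*, -0.22 to 0.015 for *Junb* and -0.14 to 0.087 for *Jund*. The cause was not tested for any of these.

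Replicate numbers did not pair the libraries, and with the replicate block 0 of the 10 genes were called while calls over all genes went from 236 to 270, 741 to 705 and 58 to 67 in the comparisons of Restored with Non-Restored, Non-Restored with *KT* and Restored with *KT*. *Jund* (18 to 279 counts) and *Fosl1* (0 to 480 counts) were limited by depth.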
